A study of Mus musculus with 2 samples.

Results

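Dermal fibroblasts outside the papilla are the collagen-making cells of the skin's connective tissue that do not carry the gene set of the dermal papilla, the fibroblast cluster at the base of the hair follicle. They were selected cell by cell, in both libraries of a single-cell RNA-seq study of newborn mouse back skin, from the number of unique molecular identifiers (UMIs, 1 per captured mRNA molecule). A cell was chosen if it had more than 1000 and fewer than 8000 detected genes and less than 15% of its UMIs from mitochondrial genes, if Col1a1 and Col1a2 together gave at least 20 UMIs per 10000 and more UMIs than Krt5 and Krt14, if at least 2 of Pdgfra, Lum, Dcn and Fbn1 were detected, and if fewer than 3 of the papilla genes Corin, Rspo3, Wif1, Inhba, Sox18, Fgf10 and Hhip were detected. This gave 788 of 8206 cells (9.60%), 483 from the Control library and 305 from the Gli2 EKO library. The Control library held 6326 barcodes, of which 4844 passed the limits on genes and mitochondrial UMIs, and the Gli2 EKO library held 4296, of which 3362 passed. No cell barcode was shared between the libraries.

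The study asked what the transcription factor Gli2 does in the epidermis. Gli2 EKO mice carried the K14Cre transgene and floxed Gli2 alleles, so that the Cre recombinase, driven by a keratin promoter active in keratinocytes, was meant to delete Gli2 in the epidermis and not in the dermis, and the controls were floxed littermates that lacked Cre and are labelled wild type. Both were kept on a C57BL/6N background and were sampled at postnatal day 2, with 1 library per genotype. How many mice went into each library is not stated. The tissue was an epidermal whole mount: back skin was digested from the dermal side with collagenase and DNase, the loosened dermis was rinsed away, and the remaining sheet was dissociated with trypsin. The fibroblasts described here are therefore those that stayed with the epidermis and its follicles, and how much dermis was rinsed from each sample can set their share.

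With 1 library per genotype there is no replicate check and no test of the genotype. Levels are given as CPM (counts of UMIs scaled to 1e6), from UMIs summed over the chosen cells of a library, and ratios as log2 of Gli2 EKO over Control. The intervals are exact 95% intervals that cover counting error only and treat UMIs as independent, although UMIs of 1 gene can be concentrated in a few cells. The targeted gene could not be used to check the labels: Gli2 (chr1:118761858-118982598, minus strand, GRCm39) stood at 79.7 CPM in the keratinocytes of the Control library and 87.4 CPM in those of the Gli2 EKO library, 2576 UMIs in each, but the reads come from the 3′ end of the mRNA and the position of the floxed exons is not given in the sources used here. The libraries are called by their labels.

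Fibroblasts of the back skin lay down the fibrillar collagens, elastic fibres and proteoglycans of the dermis. They arise from a common mesenchymal precursor and separate into an upper, papillary lineage close to the epidermis, which also supplies the dermal papilla and the dermal sheath of the follicle, and a lower, reticular lineage that also gives preadipocytes. Hedgehog ligand made by follicle keratinocytes reaches these cells, where binding to the receptor Ptch1 frees Smo and lets Gli transcription factors switch on Ptch1, Gli1 and Hhip, so these genes serve as readouts of the pathway. Wnt signalling from the epidermis acts on the upper dermis, with Twist1, Twist2, Axin2, Nkd1 and Apcdd1 among the genes that respond to it.

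In Control the chosen cells made up 9.97% of all cells (95% interval 9.14% to 10.8%). In Gli2 EKO they made up 9.07% (8.12% to 10.1%), and these intervals overlap. Depth was close in both libraries. A chosen cell had a median of 11714 UMIs and 3918 genes in Control, with a range of 1944 to 43466 UMIs, and a median of 10525 UMIs and 3615 genes in Gli2 EKO, with a range of 1925 to 46005. The median mitochondrial share was 2.19% and 2.04%.

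The genes used for selection describe the cells and are no finding. The summed rate of Col1a1 and Col1a2 ran from 20.4 to 945 UMIs per 10000 in Control with a median of 138, and from 21.6 to 803 with a median of 120 in Gli2 EKO. Few cells lay near the collagen limit: 12 and 3 chosen cells fell between 20 and 25, and 6 and 2 cells that met the other criteria lay just outside, between 15 and 20. All 4 of the fibroblast genes were detected in 317 and 197 cells, 3 of them in 122 and 80, and 2 in 44 and 28, while 30 and 20 further cells with 1 of them lay just outside. The papilla limit passed through a dense range. Of the chosen cells, 72 and 33 had none of the papilla genes, 172 and 114 had 1, and 239 and 158 had 2, next to 165 and 128 cells with 3 that were left to the papilla-like group. That group, 279 Control and 235 Gli2 EKO cells with at least 3 papilla genes and the other criteria unchanged, is the population most like the chosen cells, and no gap separates the 2 on this measure.

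The 6 marker genes of the cells were high in both libraries, as the label of the cells requires. Col1a1 (chr11:94827050-94843868, plus strand) and Col1a2 (chr6:4504814-4541555, plus strand), which encode the chains of type I collagen, stood at 9374 CPM and 10358 CPM in Control and at 9045 CPM and 9610 CPM in Gli2 EKO. Keratinocytes of the same libraries held 41.9 CPM and 31.7 CPM of Col1a1. The small leucine-rich proteoglycans Dcn and Lum, which bind collagen fibrils, were at 2226 and 898 CPM in Control and 2715 and 1190 CPM in Gli2 EKO. Fbn1, the microfibril protein fibrillin, was at 828 in Control and 747 CPM in Gli2 EKO. Pdgfra, the PDGF receptor carried by dermal mesenchyme, was at 321 CPM and 273 CPM. Corin, a protease used as a papilla marker, was at 1.74 in Control and 2.04 CPM in Gli2 EKO against 66.2 CPM and 54.2 CPM in the papilla-like cells.

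**Figure D1:**
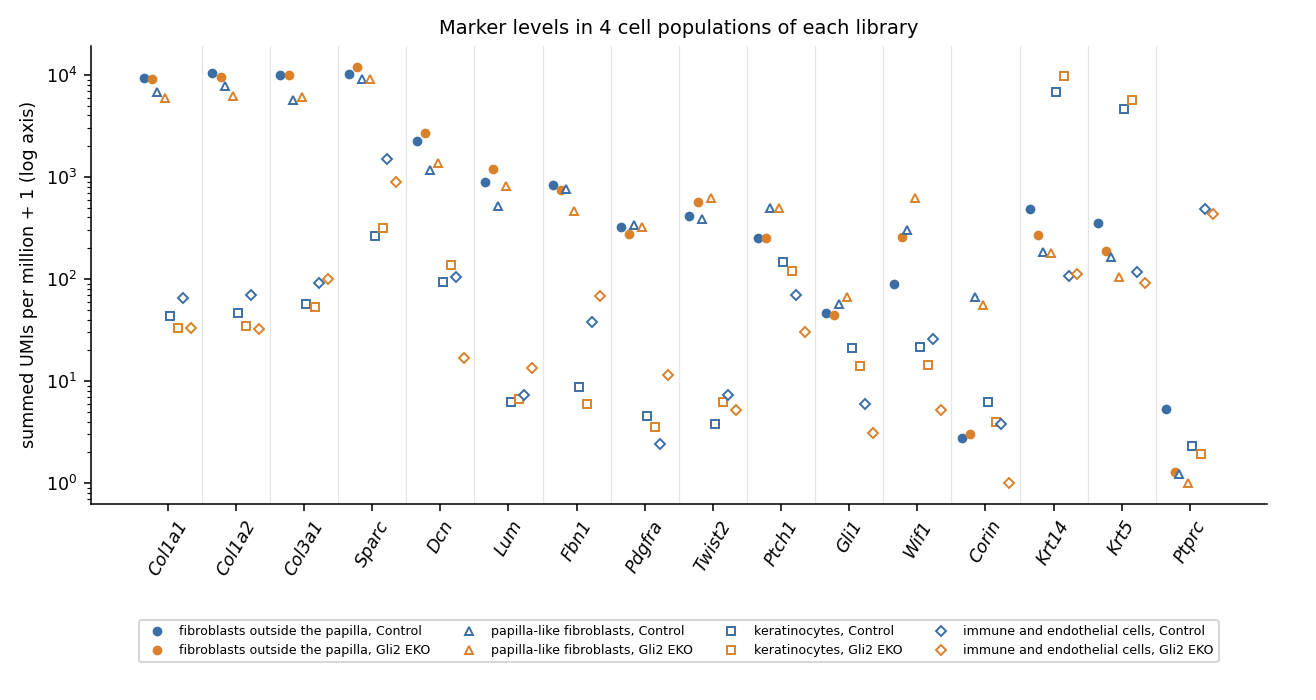
Summed level of 16 genes in CPM plus 1 (log axis) in the fibroblasts outside the papilla (filled circles), the papilla-like fibroblasts (triangles), keratinocytes (squares) and immune and endothelial cells (diamonds) of the Control library (blue) and the Gli2 EKO library (orange). Collagen and proteoglycan genes are high in both fibroblast populations, Corin is at 1.74 and 2.04 CPM in the chosen cells, and Krt14 is at 488 CPM in the Control and 271 CPM in the Gli2 EKO chosen cells.

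What set these cells apart from all other cells was mostly matrix, beyond the genes that selected them. Among genes found in at least 25% of the chosen cells of each library, the largest folds over all other cells were those of Mfap4, a microfibril-associated protein (20.8-fold), Aspn, the proteoglycan asporin (20.5-fold), and Col3a1, the type III collagen chain (19.02-fold). Dpt, which helps collagen fibrils to assemble, followed at 16.3-fold, Eln, the elastin precursor, at 15.7-fold, and Lox, the enzyme that cross-links collagen and elastin, at 14.3-fold. Ogn, Tnxb and Thbs2 reached 13.3-fold, 13.1-fold and 13.0-fold. All 20 genes chosen in this way encode proteins of the matrix or its processing except Igsf10 and Zim1, an imprinted zinc finger gene. Because the cells were chosen on collagen, these folds are a description.

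The cells also carried RNA of other cell types. The 10 keratinocyte genes, none of which was used in the selection, summed to 1675 in Control and 773 CPM in Gli2 EKO, against 11384 and 13237 CPM in keratinocytes. Krt14, which was used, was at 488 in Control and 271 CPM in Gli2 EKO, and Krt17, a keratin of follicle keratinocytes, at 521 and 144 CPM. Of the chosen cells, 114 in Control and 78 in Gli2 EKO had no UMI of Krt5 or Krt14. The keratinocyte list had a median log2 ratio of -0.93 between the libraries, and -0.53 without the keratin-carrying subcluster described next. The 6 immune genes summed to 53.3 in Control and 3.20 CPM in Gli2 EKO, and 6 Control cells held 312 of the 338 Control UMIs (92.3%). Melanocyte genes summed to 133 and 216 CPM, with 4 cells in each library carrying at least 3 of the 5 genes. Endothelial genes were near 0, with 24 UMIs in Control and 12 in Gli2 EKO and with Cldn5 and Tie1 at 0, and the muscle regulators Myod1, Myf5 and Pax7 were at 0 in both. Summed genes of mural cells were at 142 and 112 CPM, of red cells at 30.0 and 14.5 CPM, of Schwann cells at 10.4 and 9.59 CPM and of muscle at 6.16 and 11.9 CPM.

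Most of the keratinocyte RNA sat in a subcluster of the cells. Clustering of the 788 cells gave 9 subclusters, numbered by size. Subcluster 5, 67 Control and 17 Gli2 EKO cells, was led by Krt17, Krt79, Krt14, Dsp, Krt15 and Krt5, all keratins or desmosome genes, with Krt17 at 1990 CPM against 52.6 CPM in the other chosen cells. Its cells had a median of 19157 UMIs and a median of 8 of the 10 keratinocyte genes, against medians of 1 to 2 in the others. Of its cells, 89.3% were among the 8% of each library with the highest Scrublet score, a measure of how much a cell looks like a mixture of 2 cells. The part of doublets in this subcluster was not tested. Since it holds a larger part of the Control than of the Gli2 EKO cells, the medians of most gene lists are also given without it.

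**Figure D2:**
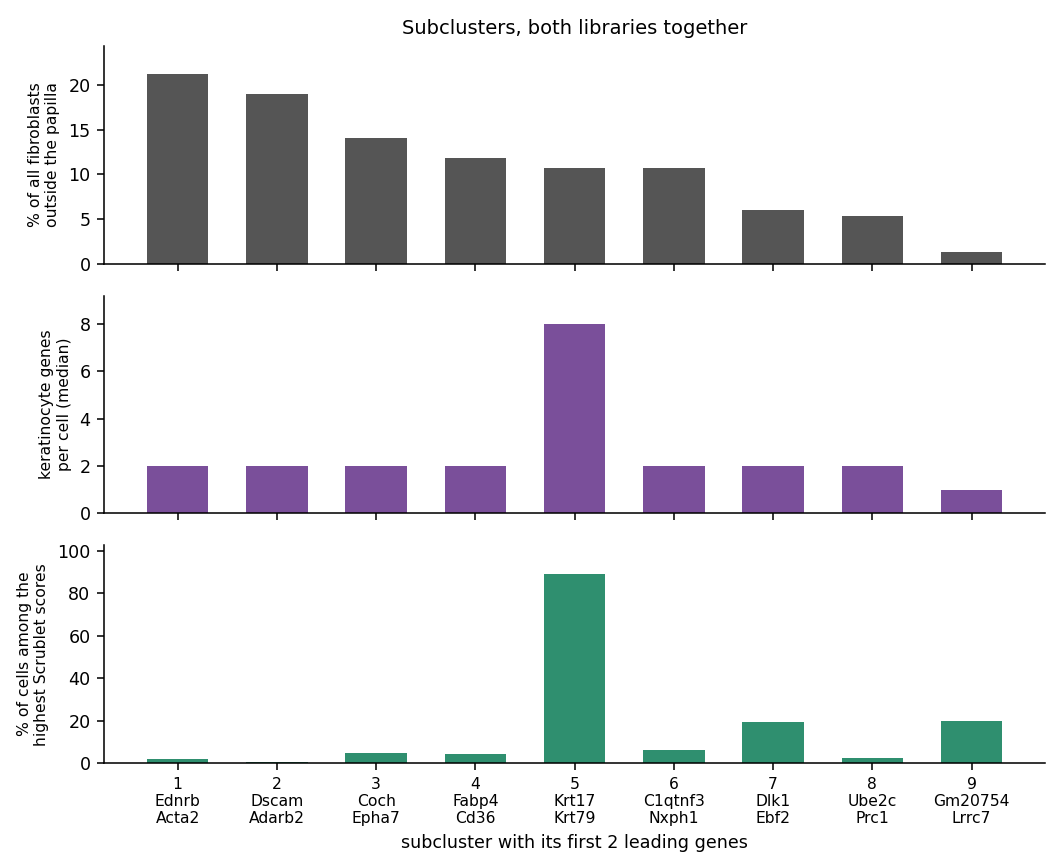
The 9 subclusters on the x axis with their first 2 leading genes, and on the y axes the share of all 788 cells in percent (top), the median number of the 10 keratinocyte genes per cell (middle) and the share of cells among the 8% with the highest Scrublet scores in percent (bottom). Subcluster 5 stands apart with a median of 8 keratinocyte genes and 89.3% of cells among the highest scores, and the other subclusters hold medians of 1 to 2.

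Of the remaining 8 subclusters, 4 had a listed marker of a dermal cell type other than the papilla among their leading genes. The genes that lead a subcluster made the grouping and are given as a description, and a name ending in -like was given only where a marker of a listed cell type was among the 10 leading genes. Subcluster 1 (104 Control and 63 Gli2 EKO cells, 21.2% of all) was dermal-sheath-like, with the contractile actin Acta2 at 2396 CPM against 265 CPM in the other chosen cells, Tagln at 1153 CPM, and the endothelin receptor Ednrb and the collagen Col11a1 at 1769 and 1994 CPM. Subcluster 3 (76 and 35 cells) was upper-dermis-like, led by Coch, Epha7, Nrg1 and Crabp1, a retinoic acid binding protein of the upper dermis, which was at 569 CPM against 62.7 CPM. Crabp1 was found in 29.7% of the cells of subcluster 3. The immune genes summed to 306 CPM there, against at most 7.50 CPM in any other subcluster. Subcluster 2 (79 and 71 cells), led by Dscam, Adarb2, Chodl, Ndnf and Fgfr4, had Crabp1 at 195 CPM and the highest Twist2, Apcdd1 and Bmp4 of the 9, at 1099, 554 and 163 CPM. Rspo3, a papilla gene used in the selection, was also among the 10 leading genes of subcluster 2, at 209 CPM against 27.4 CPM in the other chosen cells. This subcluster is called by its number because none of the listed markers of the upper dermis was among its leading genes.

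Subcluster 4 (64 and 29 cells) was preadipocyte-like: Fabp4, a fatty acid carrier, was at 2148 CPM against 57.6 CPM, Lpl, the lipase that frees fatty acids from circulating fat, at 1606 CPM against 166 CPM, and the chemokine Cxcl12 at 937 CPM against 131 CPM. Subcluster 7 (21 and 26 cells) was lower-dermis-like, with the Notch ligand relative Dlk1 (chr12:109418749-109429262, plus strand) at 1743 CPM against 99.8 CPM and the imprinted gene Mest at 1039 CPM against 74.4 CPM. The listed preadipocyte marker Ebf2 was also among its leading genes, at 393 CPM against 17.6 CPM. Its fascia and mural genes summed to 4594 and 671 CPM, the highest of the 9, so the name covers only a part of its markers. Subcluster 6 (37 and 47 cells) was led by C1qtnf3, Nxph1, Lgr5, Ccn5 and Lox, and had the highest Col1a1, Dcn and Eln of the 9, at 18575, 5448 and 1617 CPM. Subcluster 8 (29 and 13 cells) was led by cell division genes, among them Ube2c, Prc1 and Top2a, with Top2a at 1360 CPM against 126 CPM. Subcluster 9 held 6 and 4 cells and was led by Gm20754, Lrrc7, Kcnip4, Adra1a and Synpo2, with the smooth muscle regulator Myocd at 536 CPM against 4.65 CPM. The 7 dermal sheath genes summed to 16636 CPM in subcluster 9, above the 5513 CPM of subcluster 1, but none was among its 10 leading genes.

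**Figure D3:**
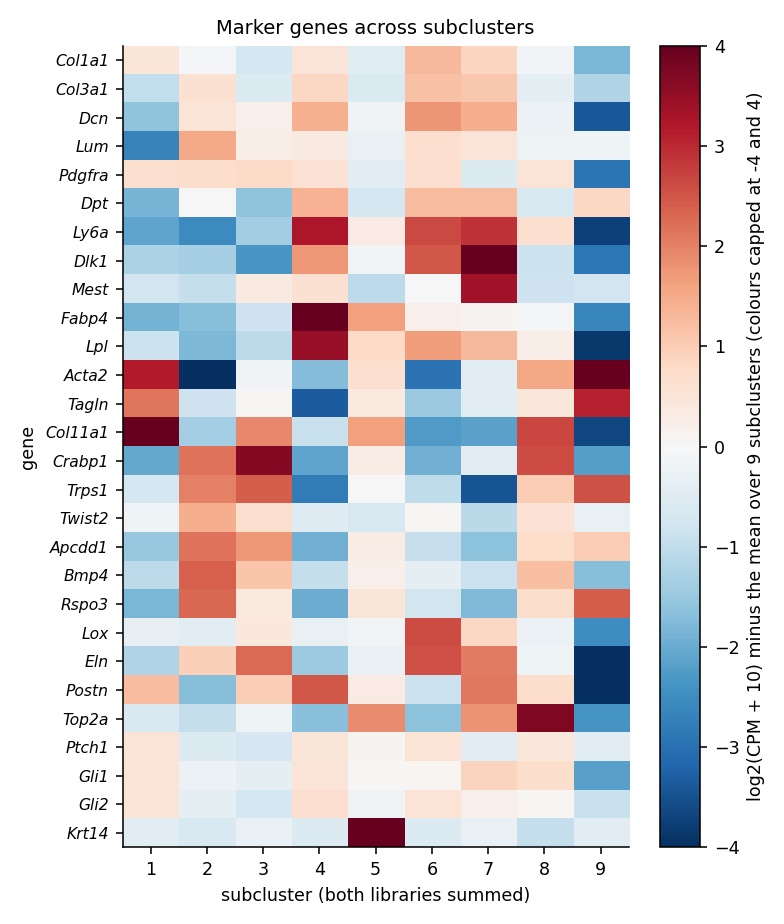
Level of 28 genes (y axis) in the 9 subclusters (x axis), both libraries summed, as log2(CPM + 10) minus the mean over the 9 subclusters, with colours capped at -4 and 4. Fabp4 and Lpl stand out in subcluster 4, Dlk1 and Mest in 7, Col11a1 in 1, Crabp1 in 3, Top2a in 8 and Krt14 in 5, while Ptch1 and Gli2 vary less.

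Sizes of subclusters were compared between the libraries only where none of the 10 leading genes differed by more than 2-fold between the libraries within the subcluster, which held for subclusters 7 and 8. The lower-dermis-like subcluster 7 held 4.35% (2.71% to 6.57%) in Control and 8.52% (5.64% to 12.2%) in Gli2 EKO, and 19.1% of its cells were among the highest Scrublet scores. The dividing subcluster 8 held 6.004% (4.06% to 8.51%) and 4.26% (2.29% to 7.18%). Both pairs of intervals overlap.

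Most genes lay close together between the libraries. Of 11203 genes with at least 50 UMIs, 88.7% lay within 1.5-fold and the median log2 ratio was -0.05. At least 2-fold higher in Gli2 EKO were 81 genes (0.723%), and 299 (2.67%) were at least 2-fold lower. Without the keratin-carrying subcluster, 10473 genes had enough UMIs and 91.7% of them lay within 1.5-fold. In those cells 59 genes (0.563%) were at least 2-fold higher and 118 (1.13%) at least 2-fold lower. The lower group was 299 genes with subcluster 5 and 118 without it, and the higher group 81 and 59. These counts are sizes, with no call of significance. Of the 10 keratinocyte genes 3 were at least 2-fold lower, Krt17, Dsp and Trp63, and all 5 measured immune genes were.

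None of the 9 measured genes of the fibrillar collagen list passed 2-fold, and their median log2 ratio was -0.05, as over all genes, and -0.19 without subcluster 5. The ratio was above 0 in 0 of the 9 in either set of cells. Col1a1 and Col1a2, which were used in the selection, are among the 9. Col3a1 stood at 10034 in Control and 9952 CPM in Gli2 EKO. Within subclusters it was lower in Gli2 EKO in 9 of 9, for instance 15539 and 10057 CPM in subcluster 2. Among the subclusters Col3a1 ranged from 3704 to 19117 CPM. Col11a1, a minor fibrillar chain that was highest in the dermal-sheath-like subcluster, was lower, with 659 in Control and 378 CPM in Gli2 EKO (log2 -0.80), and so was Col27a1, with 60.1 and 37.5 CPM. In the dermal-sheath-like subcluster Col11a1 was at 2404 in Control and 1225 CPM in Gli2 EKO. Within subclusters it was higher in Gli2 EKO in 4 and lower in 2 of 6 compared. Of 19 other collagens, 1 passed 2-fold: Col8a2, a network-forming chain, at 13.6 and 2.33 CPM (log2 -2.55).

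Genes that process and fold collagen leaned the other way. Their list had a median log2 ratio of 0.26, with 19 of 24 above 0 and none past 2-fold. Serpinh1, the collagen chaperone of the endoplasmic reticulum, was at 1354 in Control and 1754 CPM in Gli2 EKO, and Ppib, which helps proline bonds to fold, at 854 and 1074 CPM. Without the keratin-carrying subcluster the median of the list was 0.13, and with the Gli2 EKO subclusters weighted to the Control proportions it was 0.09. Mia3, which helps to load procollagen for secretion, was lower at 194 and 159 CPM.

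The elastic fibre list had a median of 0.12 over 16 genes, 0.10 without subcluster 5, with none past 2-fold. Eln stood at 480 in Control and 627 CPM in Gli2 EKO, Mfap2 at 1095 and 1414 CPM, and Fbln2, a fibulin of microfibrils, at 425 and 324 CPM. Within subclusters Eln was higher in Gli2 EKO in only 2 and lower in 6 of 8 compared. Mfap2 was higher in 7 of 9, and Fbln2 lower in 5 of 8. Among 8 small leucine-rich proteoglycans the median was 0.22. It was 0.11 without subcluster 5 and 0.01 with the subclusters weighted to the Control proportions. Ogn, or osteoglycin, was highest in ratio, at 197 and 301 CPM (log2 0.61). Within subclusters Ogn was higher in Gli2 EKO in 4 and lower in 4 of 8 compared. Lum was higher in Gli2 EKO in 8 of 9 subclusters, but Lum and Dcn, of the same family, were used in the selection.

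Matricellular genes, whose products sit in the matrix and act on cells, spread more widely. Of 19 measured, Ccn5 was past 2-fold higher and Tnn past 2-fold lower, with a median of 0.18, and 0.10 without subcluster 5. Ccn5, a member of the CCN family that led subcluster 6, was at 6.63 in Control and 28.2 CPM in Gli2 EKO (log2 2.09, and 1.72 without subcluster 5). Within subcluster 6 it was at 84.1 and 140 CPM. Tnn, tenascin N, was at 14.4 and 3.78 CPM (log2 -1.93). It was highest in subcluster 3, where it stood at 87.8 and 7.12 CPM. Postn, periostin, was lower at 1951 and 1323 CPM (log2 -0.56, interval -0.61 to -0.51), in 7 of 8 subclusters compared. Vcan, the large proteoglycan versican, was at 1017 and 760 CPM and lower in 9 of 9. Tnc, Ccn3 and Sparcl1 were higher, with 95.2 and 148 CPM for Tnc.

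Proteases and their inhibitors had a median of 0.01 over 14 genes, and -0.06 without subcluster 5, with 1 past 2-fold. This was Timp1, an inhibitor of matrix metalloproteinases, at 14.4 in Control and 32.3 CPM in Gli2 EKO. The metalloproteinases Mmp2 and Mmp14 were at 169 and 474 CPM in Control and 203 and 517 CPM in Gli2 EKO.

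Transcription factors that mark dermal mesenchyme and body position were nearly level. Of 21 mesenchymal factors none passed 2-fold and the median was 0.06, and -0.03 without subcluster 5. Tbx15, which patterns the dorsal skin, was at 444 in Control and 440 CPM in Gli2 EKO, Prrx1 at 400 and 417 CPM, and En1, which marks the dorsal trunk dermal lineage, at 48.5 and 62.5 CPM. Twist1 (chr12:34007645-34009828, plus strand), a factor of the early dermis, was higher at 269 and 396 CPM (log2 0.56, interval 0.45 to 0.66), and its relative Twist2 (chr1:91729176-91796542, plus strand) at 416 and 566 CPM (log2 0.45, interval 0.36 to 0.53). Without subcluster 5 the ratios were 0.47 for Twist1 and 0.33 for Twist2. Twist1 was higher in Gli2 EKO in 8 of 9 subclusters and Twist2 in 7 of 9. Among 18 measured Hox genes, which record position along the trunk, none passed 2-fold, and their median was 0.14, and 0.27 without subcluster 5. Among them were Hoxc8 at 72.8 and 83.4 CPM and Hoxa9 at 38.0 and 43.9 CPM. The Y-linked genes Ddx3y and Eif2s3y were at 84.3 and 72.5 CPM in Control and 79.7 and 73.0 CPM in Gli2 EKO, and Xist was at 0 and 0.291 CPM.

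Among the Hedgehog target genes, Ptch1 and Gli1 lay closer between the libraries than their counting intervals, and Hhip did not. Ptch1 (chr13:63656142-63721412, minus strand), the receptor and a target of the pathway, was at 248 CPM in Control (236 to 261) and 253 CPM in Gli2 EKO (236 to 270), a log2 ratio of 0.02 with an interval of -0.10 to 0.14, and 0.08 without subcluster 5. Gli1 (chr10:127165751-127177865, minus strand), the other common readout, was at 45.0 CPM (39.9 to 50.5) and 43.6 CPM (36.9 to 51.2). The intervals of both genes overlap almost fully. Gli2 itself was at 186 in Control and 174 CPM in Gli2 EKO in these cells, in which Cre was not meant to act, and Gli3 was at 119 and 125 CPM. The signal transducer Smo was at 104 and 101 CPM, and the co-receptors Gas1, Cdon and Boc at 444, 121 and 70.7 CPM in Control and 416, 111 and 82.9 CPM in Gli2 EKO.

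None of the 11 measured Hedgehog genes passed 2-fold, with a median of -0.04, and -0.02 without subcluster 5. The furthest was Hhip, a decoy receptor and target that was also used in the selection, at 62.2 and 44.8 CPM (log2 -0.47, interval -0.75 to -0.20, and -0.56 without subcluster 5). Across subclusters the ratio of Ptch1 had no common direction, higher in 3 and lower in 5 of 8 compared, and Gli1 was higher in 4 and lower in 4.

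The readouts varied more among the subclusters than between the libraries. Ptch1 was lowest in the upper-dermis-like subcluster 3 at 135 CPM, and highest in subclusters 1 and 6, at 328 and 327 CPM. Gli1 ran from 25.5 CPM in subcluster 3 to 74.6 CPM in subcluster 7, leaving aside the 10 cells of subcluster 9. Hhip was at 182 CPM in the preadipocyte-like and 176 CPM in the lower-dermis-like subcluster, against 10.2 to 44.1 CPM in the other 7. The selection capped the number of papilla genes, Hhip included, in each cell.

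At equal depth, with each cell thinned to 2000 UMIs (482 and 303 cells, leaving out 1 and 2 shallower cells), a UMI of Ptch1 was found in 30.1% of cells in Control (26.0% to 34.4%) and in 31.0% in Gli2 EKO (25.9% to 36.6%). Without thinning the shares were 70.6% and 70.5%. In immune and endothelial cells, taken as the background from free RNA, 7.94% and 10.5% of cells had a Ptch1 UMI, with median depths of 10048 and 11729 UMIs. Keratinocytes stood at 20.3% and 19.1%, and papilla-like fibroblasts at 53.8% and 51.5%. Gli1 was found in 7.68% (5.46% to 10.4%) and 10.6% (7.34% to 14.6%) of the chosen cells, against 0.794% of the Control immune and endothelial cells and 0 of 76 in Gli2 EKO, where a limit set at 3 counts allows a share of up to 3.95% and the exact interval up to 4.74%. For Gli2 the shares were 28.6% and 27.7%, with 2.38% and 1.32% as background.

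**Figure D4:**
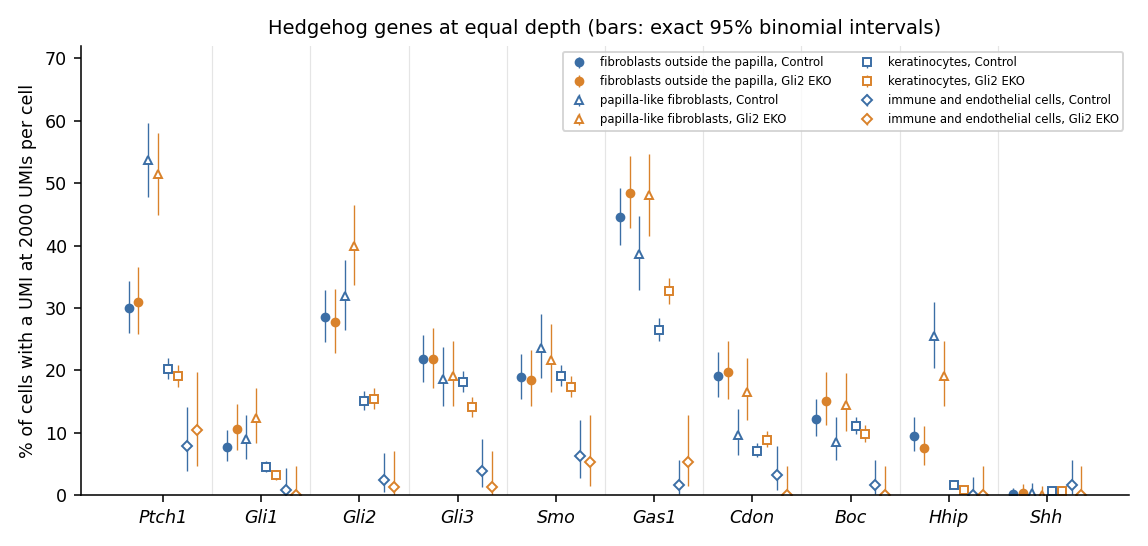
Share of cells with a UMI (y axis, percent) for 10 Hedgehog genes (x axis) after thinning each cell to 2000 UMIs, in 4 cell populations of the Control (blue) and Gli2 EKO (orange) libraries, with bars for exact 95% binomial intervals. In the fibroblasts outside the papilla (filled circles) Ptch1 is at 30.1% and 31.0%, below the papilla-like fibroblasts at 53.8% and 51.5%.

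Wnt genes showed a mixed picture, with a median of -0.04 over 28 measured genes, 1 of them past 2-fold lower. Among the feedback genes and factors, Nkd1, an intracellular inhibitor, was at 78.6 in Control and 145 CPM in Gli2 EKO (log2 0.88) and higher in 6 of 6 subclusters compared. Apcdd1, a membrane inhibitor, was at 153 and 238 CPM (log2 0.64), higher in 6 of 8, and the transcription factor Tcf7 at 36.8 and 61.3 CPM (log2 0.74). Axin2, the most used readout, was at 30.0 and 39.5 CPM (log2 0.40). Within subclusters Axin2 was higher in 2 and lower in 3 of 5 compared, and Tcf7 was higher in 5 of 6. The list as a whole had 14 of 28 ratios above 0, and the receptor genes Fzd1 and Lrp6 and the Dickkopf family gene Dkk3 were each lower in 7 of 8 subclusters.

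The Wnt gene past 2-fold was the co-receptor Lrp5, at 34.3 in Control and 16.9 CPM in Gli2 EKO (log2 -1.02, and -0.94 without subcluster 5). Some genes of the list took the opposite sign without subcluster 5. Sfrp1, a secreted Wnt inhibitor, had a log2 ratio of -0.64 with it and 0.59 without, and Wnt4 -0.30 and 0.49. Without the subcluster the median over 28 genes was 0.22 and none passed 2-fold. Wif1 (chr10:120869865-120936555, plus strand), a secreted Wnt inhibitor and one of the genes of the selection, was at 88.1 in Control and 255 CPM in Gli2 EKO (log2 1.53, interval 1.38 to 1.69). It was highest in the dermal-sheath-like subcluster 1, at 218 and 603 CPM, and in papilla-like cells it stood at 299 and 622 CPM. At equal depth 12.7% (9.82% to 16.0%) and 31.4% (26.2% to 36.9%) of the chosen cells had a Wif1 UMI, against 1.59% and 1.32% of immune and endothelial cells. With fewer than 2 papilla genes allowed per cell the log2 ratio was 2.79. The selection capped the number of papilla genes per cell, Wif1 included, so these values depend on the cap and are no independent support.

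**Figure D5:**
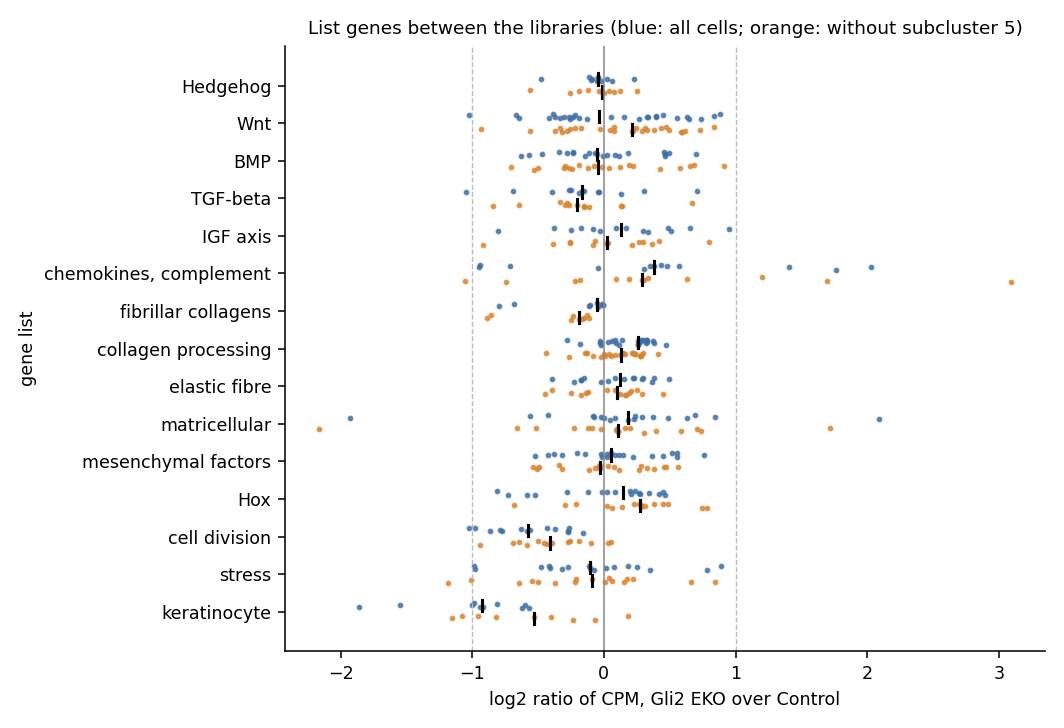
Log2 ratio of CPM, Gli2 EKO over Control (x axis), for each gene with at least 50 UMIs in 15 gene lists (y axis), in all chosen cells (blue) and without the keratin-carrying subcluster 5 (orange), with a black mark at the median of each list and dashed lines at 2-fold. Hedgehog genes lie near 0, division genes are below 0 with a median of -0.57, and -0.41 without subcluster 5, and collagen processing genes have a median of 0.26, and 0.13 without it.

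In the BMP list none of 21 genes passed 2-fold, with a median of -0.05 with and without subcluster 5. The ligand Bmp4, highest in subcluster 2, was at 38.7 in Control and 54.4 CPM in Gli2 EKO, and the target Id3 at 77.0 and 106 CPM. The TGF-beta list had a median of -0.17 over 13 genes, and -0.21 without subcluster 5. Its ligand Tgfb2 was past 2-fold lower at 51.1 and 24.7 CPM (log2 -1.05), and at -0.85 without subcluster 5. Of the growth factors, the PDGF ligand Pdgfd was past 2-fold higher, at 21.5 and 48.3 CPM (log2 1.17, and 1.02 without subcluster 5), and Mdk, the heparin-binding factor midkine, was at 98.2 and 164 CPM. The growth factor list had a median of -0.13, and without subcluster 5 of -0.12, with the PDGF ligand Pdgfc then past 2-fold lower (log2 -1.02).

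The insulin-like growth factor list had a median of 0.13, and 0.02 without subcluster 5, with none of 14 genes past 2-fold. Igf1 was at 112 in Control and 160 CPM in Gli2 EKO, and the binding protein Igfbp5 at 180 and 103 CPM (log2 -0.80), lower in 8 of 9 subclusters. Dlk1 was at 151 and 293 CPM (log2 0.95). With the Gli2 EKO subclusters weighted to the Control proportions its ratio was 0.29. Dlk1 was highest in subclusters 6 and 7, where it stood at 238 and 1617 CPM in Control and 527 and 1877 CPM in Gli2 EKO. The imprinted RNA H19 was at 298 and 367 CPM, but within subclusters it was higher in Gli2 EKO in 3 and lower in 5 of 8 compared.

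Of 13 measured chemokine and complement genes 3 were past 2-fold higher, Cxcl2, Ccl7 and Il6, and the median was 0.38. Without subcluster 5 the median was 0.29 and the chemokine Ccl2 was past 2-fold lower (log2 -1.05). In those cells 3 genes of the list were past 2-fold higher, with a highest log2 ratio of 3.09. Cxcl2, which draws neutrophils, was at 25.4 in Control and 104 CPM in Gli2 EKO (log2 2.03), but its UMIs came from 12 and 7 cells, and 1 cell held 54.7% of them in Control and 1 cell 45.1% in Gli2 EKO. Ccl7, a monocyte chemokine, was at 17.5 and 59.6 CPM (log2 1.77) in 27 and 19 cells, with 64.4% of the Gli2 EKO UMIs in 1 cell. These ratios rest on few cells: without the 8% highest Scrublet scores of each library they were 0.53 for Cxcl2 and 0.35 for Ccl7, and the median of the list was 0.02. Cxcl12, which led the preadipocyte-like subcluster, was lower at 291 and 178 CPM (log2 -0.71), and lower in 8 of 8 subclusters compared. The complement inhibitor Serping1 was at 157 and 219 CPM.

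Lists of dermal subtypes also gave small differences. The upper dermis list had a median of -0.03 over 11 genes, and 0.03 without subcluster 5, with none past 2-fold, with Crabp1 at 108 in Control and 130 CPM in Gli2 EKO. The lower dermis list had a median of 0.38 over 7 genes, 0.25 without subcluster 5 and 0.12 with the subclusters weighted to the Control proportions. Its glutathione peroxidase Gpx3 was past 2-fold at 3.79 and 8.43 CPM (log2 0.92 without subcluster 5) and the imprinted gene Peg3 was lower at 1281 and 892 CPM. In the fascia list Pi16, a marker of fibroblasts around fascia and vessels, was past 2-fold higher at 10.6 and 25.9 CPM, and the median over 9 genes was 0.10, and 0.07 without subcluster 5. The preadipocyte list had a median of -0.24 over 6 genes with and without subcluster 5, and the dermal sheath list 0.11 over 7, and -0.07 without subcluster 5. None of either list passed 2-fold. Of 11 further papilla genes not used in the selection, 6 had enough UMIs, with a median of 0.38 and none past 2-fold, and the median was -0.20 for those with at least 200 UMIs. Without subcluster 5 the median was 0.32 and 1 of 5 passed 2-fold, the transcription factor gene Prdm1, at 9.31 and 18.6 CPM in all chosen cells (log2 1.00, and 1.68 without subcluster 5).

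Of the genes with at least 100 UMIs and 10 in each library, the 10 with the lowest ratio in all chosen cells all stood higher in the keratinocytes of the same library. Lhx2, a hair follicle stem cell factor, was at 29.0 in Control and 4.07 CPM in Gli2 EKO against 144 and 86.1 CPM in keratinocytes, and Krt35, a hair keratin, at 30.9 and 3.20 CPM. Cst6, an epidermal protease inhibitor with a log2 ratio of -3.66, had 71.1% of its Control UMIs in 1 cell and a ratio of 0.84 without subcluster 5. The ratio of Lhx2, -2.84, was -1.33 without it. Among the highest, Ifi202b had 92.6% and Krt16 83.5% of the Gli2 EKO UMIs in 1 cell. Prss23, a serine protease, and Scg3, a granule protein, were spread over more cells: Prss23 was at 28.7 and 79.4 CPM (log2 1.47) in 88 and 91 cells, and Scg3 at 16.9 and 45.1 CPM (log2 1.42) in 53 and 59 cells. Prss23 was also higher in the Gli2 EKO papilla-like cells, at 45.1 and 115 CPM.

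Without the keratin-carrying subcluster, the lowest ratio was that of Sox5, an SRY-related transcription factor, at -2.48. In all chosen cells Sox5 was at 102 in Control and 25.6 CPM in Gli2 EKO (log2 -1.99), in 90 and 21 cells, and 1 cell held 42.0% of the Gli2 EKO UMIs. With fewer than 2 papilla genes allowed its ratio was -0.56. Next to Tnn stood Nrg1 (chr8:32303906-33374825, minus strand), the ERBB ligand neuregulin, at 298 and 86.3 CPM (log2 -1.79, and -1.92 without the subcluster) in 112 and 52 cells. Nrg1 led the upper-dermis-like subcluster 3, where it was at 1446 in Control and 320 CPM in Gli2 EKO. In papilla-like cells it was at 85.7 and 70.3 CPM. Rgs5, a mural cell gene also among the lowest, had 92.7% of its Control and 93.1% of its Gli2 EKO UMIs in 1 cell of each library.

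Against the papilla-like cells of the same libraries, the chosen cells had more RNA of genes that the selection did not use, given as a description since the groups were split on a related set. C1qtnf3, a secreted C1q-domain protein, was at 154 in Control and 217 CPM in Gli2 EKO against 29.2 and 22.3 CPM in papilla-like cells. Agtr2, an angiotensin receptor, was at 47.4 and 67.7 CPM against 7.36 and 7.20 CPM, and the kinase gene Nrk at 62.4 and 82.3 CPM against 7.13 and 4.11 CPM. H19 and Dlk1 were likewise higher, with H19 at 73.3 and 74.0 CPM in papilla-like cells. In the other direction Prex2, a Rac activator, was at 44.2 and 70.6 CPM against 177 and 304 CPM, and Ptch1 was at 493 and 492 CPM in papilla-like cells. Of the genes of the selection, Sox18 stood at 44.7 and 60.2 CPM against 187 and 220 CPM.

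Fewer of the Gli2 EKO cells carried division genes. After thinning to 2000 UMIs, 80 of 482 Control cells had at least 3 of 14 division genes (16.6%, 13.4% to 20.2%), against 29 of 303 Gli2 EKO cells (9.57%, 6.504% to 13.5%), and these intervals meet. The ratio was 0.58 (0.39 to 0.86). It was 0.66 without the 8% highest Scrublet scores of each library, with an interval of 0.41 to 1.07 that includes 1. Without thinning the shares were 31.1% and 20%. Keratinocyte RNA moved with this share. Without the keratin-carrying subcluster the Control share was 11.8% and the ratio 0.71, and the part of this subcluster in the difference was not tested further. All 14 genes had a ratio below 0, with a median of -0.57, and 1 passed 2-fold, the spindle gene Nusap1 at 63.9 in Control and 31.4 CPM in Gli2 EKO (log2 -1.03). Mki67, a marker of cycling cells, was at 239 and 121 CPM, and Cdk1, the mitotic kinase, at 57.0 and 51.2 CPM. Without the subcluster the median was -0.41, with 2 of 14 above 0 and none past 2-fold, and with the subclusters weighted to the Control proportions it was -0.27. The 13 genes of DNA replication had a median of -0.24, and -0.19 without subcluster 5, with Pcna, the polymerase clamp, at 93.0 and 88.7 CPM.

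Stress genes, which tissue dissociation can also induce, lay on both sides of 0, with a median of -0.11 over 17 genes. Without subcluster 5 the median was -0.09 and 2 passed 2-fold lower, Atf3 and Dusp1. The heat shock gene Hspa1a was at 369 in Control and 684 CPM in Gli2 EKO (log2 0.89), higher in 8 of 9 subclusters, and Hspa1b at 434 and 748 CPM. Fos, Atf3 and Dusp1, early response genes, were lower, at 376, 80.3 and 79.9 CPM in Control and 271, 40.7 and 40.4 CPM in Gli2 EKO. The ribosomal RNA gene Rn18s-rs5, the gene with the most UMIs in these cells, was at 35086 and 21843 CPM, and was lower in the Gli2 EKO library also in keratinocytes, at 23493 and 15204 CPM, and in papilla-like cells, at 27908 and 16424 CPM. Genes of hypoxia and glycolysis had a median of -0.03, and 0.03 without subcluster 5, and none of 12 passed 2-fold.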

How the data were processed

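Dissociated epidermal whole mounts of 1 Control and 1 Gli2 EKO mouse skin sample were profiled with a 10x Genomics 3′ kit. The authors deposited a filtered matrix of raw UMI counts per gene and cell for each library, made with Cell Ranger 9.0.1 against GRCm39 and GENCODE M30, and the submitters' processing notes also name Seurat. The study removed doublets with scDblFinder, which was not run here. Scrublet scores stand in for it as an alternative.

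Cells were filtered and chosen as given in the report. The cells and gene lists were chosen with earlier results of these data known. UMIs were summed per library and scaled to the total of the chosen cells. Ratios were computed for genes with 50 or more UMIs in the 2 libraries together, and genes with 0 UMIs in a library have no ratio. There was 1 library per genotype, so no test was run. Intervals are 95% and exact (Clopper-Pearson for shares, Poisson for levels, a conditional binomial for each ratio), for counting error alone. Intervals of a ratio of 2 shares are approximate and were computed on a log scale. Shares with a UMI and division shares were computed after thinning cells to 2000 UMIs. Keratinocytes had at least 20 Krt5 and Krt14 UMIs per 10000 and less collagen than the fibroblast limit. Immune and endothelial cells had at least 3 genes of either marker list. Subclusters used 2000 variable genes, 20 principal components, 15 neighbours and Leiden clustering at resolution 0.5 in scanpy 1.11.5, with anndata 0.12.19, numpy 2.4.6, pandas 2.3.3 and scipy 1.17.1. The ratio code was tested on simulated counts.

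Genes are named if they chose the cells, belong to a gene list, had among the 15 largest UMI sums, had among the 20 largest folds over other cells, had among the 10 highest or lowest ratios between libraries, led a subcluster, or differed most from papilla-like cells. Folds over other cells add 10 CPM to both levels. Coordinates are those of GENCODE M39 on GRCm39, in which 562 of 563 identifiers were found. UMIs were counted per identifier. The 77 symbols that belong to more than 1 identifier were not used in gene lists, and 2 list genes were not matched.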

Additional observations from a re-analysis of the deposited data

Results flagged for a closer look

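For 4 genes the ratio of Gli2 EKO over Control was at least 2-fold in opposite directions in the chosen fibroblasts and in another population of the same libraries. The differences were not tested, since each genotype has 1 library. Cxcl2 had a log2 ratio of 2.03 in the fibroblasts outside the papilla and -1.40 in keratinocytes, and in the fibroblasts its UMIs came from 12 Control and 7 Gli2 EKO cells. The melanocyte genes Dct and Pmel had log2 ratios of 1.23 and 1.02 in the fibroblasts and -1.13 and -1.47 in keratinocytes. Without the keratin-carrying subcluster the fibroblast ratio was -0.92 for Dct and -0.22 for Pmel. Krt79, a keratin of follicle keratinocytes, had a log2 ratio of -1.11 in the fibroblasts and 1.41 in the papilla-like fibroblasts, and led the keratin-carrying subcluster.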

How the results depend on the processing

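No paired analysis was possible because each genotype has 1 library, so a replicate number pairs nothing and leaving out a library leaves no comparison. Of the alternatives, leaving out the keratin-carrying subcluster and setting aside genes with over 25% of the UMIs of their higher library in 1 cell were chosen after seeing the data. Over all results and alternatives, 626 values stayed within their counting interval or within 1.5 times the count, 172 moved further and 6 single-gene ratios were counted as reversed. The 6 were Sema3e at 0.17 without the highest Scrublet scores, Ifi202b at -1.22, Krt16 at -1.14 and Rgs5 at 3.12 with fewer than 2 papilla genes allowed, and Cst6 at 0.84 and Sprr1a at 0.51 without the keratin-carrying subcluster. Medians of gene lists that changed sign were counted by their distance alone, not as reversed. Without the highest Scrublet scores the dermal sheath median went from 0.11 to -0.29. The Wnt median went from -0.04 to 0.12 and that of the insulin-like growth factor list from 0.13 to -0.02.

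The Control share of cells was 9.11% without the highest Scrublet scores, 8.26% with at least 50 collagen UMIs per 10000, 9.06% with at least 3 fibroblast genes, 5.04% with fewer than 2 papilla genes and 8.59% without the keratin-carrying subcluster. The Gli2 EKO share was 7.53% with at least 50 collagen UMIs and 4.37% with fewer than 2 papilla genes. The ratio of the shares, 0.91 as reported, ran from 0.87 to 1.00. The Control division share was 12.1% without the highest Scrublet scores, 11.8% without the keratin-carrying subcluster, 22.1% at 5000 UMIs, 31.1% without thinning, 21.4% with at least 2 division genes and 10.4% with at least 5. The Gli2 EKO division share was 20% without thinning, 13.9% with at least 2 genes and 5.28% with at least 5. The ratio of the division shares stayed below 1 in each of these, from 0.48 to 0.71. For the set without the highest Scrublet scores the Gli2 EKO share was 8%. The interval of the ratio there, 0.41 to 1.07, includes 1.

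The count of genes at least 2-fold higher, 81 as reported, was 53 without the highest Scrublet scores, 230 with a minimum of 20 UMIs, 14 with a minimum of 200, 53 with genes concentrated in 1 cell set aside and 41 with these and the keratin-carrying subcluster left out. The count at least 2-fold lower, 299 as reported, was 118 without the highest Scrublet scores, 118 without the keratin-carrying subcluster, 179 with subclusters weighted to the Control proportions, 611 at 20 UMIs, 73 at 200 UMIs and 85 with both exclusions. Against 9 subclusters as reported, resolution 1.0 gave 14, resolution 0.3 gave 6, and centring each gene within its library gave 7. The cause of these shifts was not tested, beyond the fewer genes or cells that a setting keeps. Depth limits the low genes: with the limit set at 3 counts, 0 cells with a UMI after thinning allows a share of up to 0.622% in Control and 0.990% in Gli2 EKO.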
